A study of Homo sapiens with 6 samples.

Results

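The effect of a Staufen1 siRNA given on top of an ADAR1 siRNA was measured in A172 cells, an established human glioblastoma line, by RNA-seq. The contrast sets the 2 libraries labelled siADAR1 and siStaufen1, called the combined knockdown here, against the 2 libraries labelled siADAR1, which are 4 of the 6 libraries of the series. The libraries were chosen by these transfection labels alone, and all 14711 rows of 20514 with enough reads were tested. The other 2 libraries (siControl, a control siRNA) are not compared, but they entered the filter on low counts, the scaling, the estimate of the spread and the average abundance of a row. Both groups compared carried the ADAR1 siRNA, and a group with the Staufen1 siRNA alone was not analysed here. Per the labels, the cells of every library were also to receive a plasmid for HA-tagged STAU1 on the day after the siRNA. That treatment text is the same for all libraries and does not mention the Staufen1 siRNA. No label says that replicates a and b were separate cultures, so the spread behind each p-value is that of these libraries and may be technical.

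Staufen1, the product of STAU1, binds double-stranded RNA. In Staufen-mediated decay it binds a stem in the 3' untranslated region of an mRNA, recruits the helicase UPF1, and the mRNA is degraded. ADAR1 is a double-stranded RNA-binding enzyme that edits adenosine to inosine, and both proteins can occupy duplexes formed by inverted Alu repeats. The title of the series places ADAR1 as an inhibitor of this decay pathway in stressed cells, so the contrast asks which transcript levels differ once Staufen1 is targeted as well.

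Each row of the data is a gene-like group of UCSC hg19 transcripts, and is given here by its first transcript ID. The file does not pair these IDs with gene names, and an annotation linking them to symbols was not used here. The rows of STAU1 and ADAR were therefore not analysed as such, so the knockdown labels were not checked, and neither were markers of the cell line or of other cell types. In RefSeq's gene table (assembly GRCh38.p14) a UCSC ID is a synonym of 5 genes, all long non-coding RNAs, and 4 of these IDs were found in the file, 1 of them (ACTA2-AS1) with the version number and 3 without it. Of them, LINC01426 (row uc002yug.3) alone had enough reads to be tested. It had 27 and 35 reads in the siADAR1 libraries and 21 and 23 in the combined knockdown, with a log2 fold change of -0.32 (95% interval -1.17 to 0.53; adjusted p = 0.538, edgeR quasi-likelihood test), so neither a fall nor a rise was resolved. The other 3 were close to undetected. ACTA2-AS1 had 1 read in each siADAR1 library and 4 and 3 in the combined knockdown, MIR7-3HG had 0 and 1 and then 0 and 0, and ZNF350-AS1 had 0 reads in all 4.

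The 4 libraries held between 24517904 and 29508632 estimated reads. Levels are CPM, that is counts scaled to a common library size, on TMM-scaled library sizes, and since they are not divided by transcript length, they are compared between libraries of the same row only. Replicates were close to each other. Among the 8991 rows that averaged 3 or more in log2 CPM, the 2 siADAR1 libraries differed by a median of 0.062 on the log2 scale and the 2 combined knockdown libraries by 0.067. A combined knockdown library and a siADAR1 library differed by 0.242 to 0.255, depending on the pair. Only 6 of these rows were at least 2-fold apart between the siADAR1 replicates and 2 between the combined knockdown replicates, whereas 370 to 412 were so between libraries of different groups. The spread between groups was thus several times the spread within them, in all 4 pairings.

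**Figure D1:**
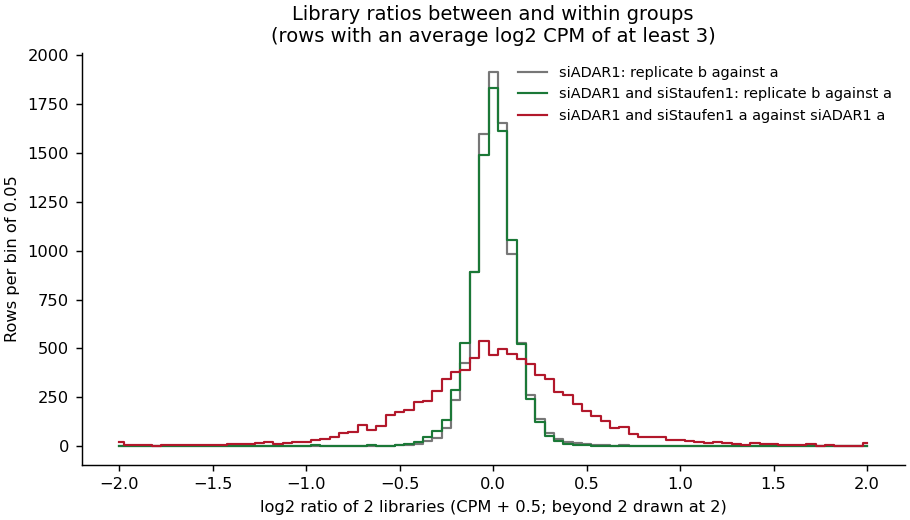
Distribution of log2 ratios between 2 libraries (x axis, log2 of CPM + 0.5) over the 8991 rows that averaged 3 or more in log2 CPM, as rows per bin (y axis). Grey and green lines are replicate b against a within a group, and the red line is a combined knockdown library against a siADAR1 library; the red line is much wider than the others.

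In the combined knockdown, 3196 rows (21.7% of those tested) were higher and 3170 (21.5%) were lower than in siADAR1, 43.3% in all. The test was edgeR's quasi-likelihood F test, with a threshold of 0.05 after Benjamini-Hochberg adjustment. With only the 4 libraries compared in the fit, 3670 rows were higher and 3755 lower. In RNA from whole cultures, less of a transcript per cell and fewer cells that hold it cannot be told apart. Most of these differences were small. The median called rise was 0.47 and the median called fall -0.55 on the log2 scale, and 3745 of the 6366 called rows (58.8%) differed by less than 1.5-fold. At least 2-fold, 467 rows rose (3.17% of those tested) and 562 fell (3.82%). At least 4-fold, 50 rose and 95 fell, and at least 8-fold, 9 rose and 19 fell. Over all rows tested, falls were thus the more frequent at each of these sizes. This did not hold at every abundance, as given below. In 6364 of the 6366 called rows, both libraries of one group lay beyond both of the other, a separation found in 37.1% (higher) and 37.4% (lower) of all rows tested.

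**Figure D2:**
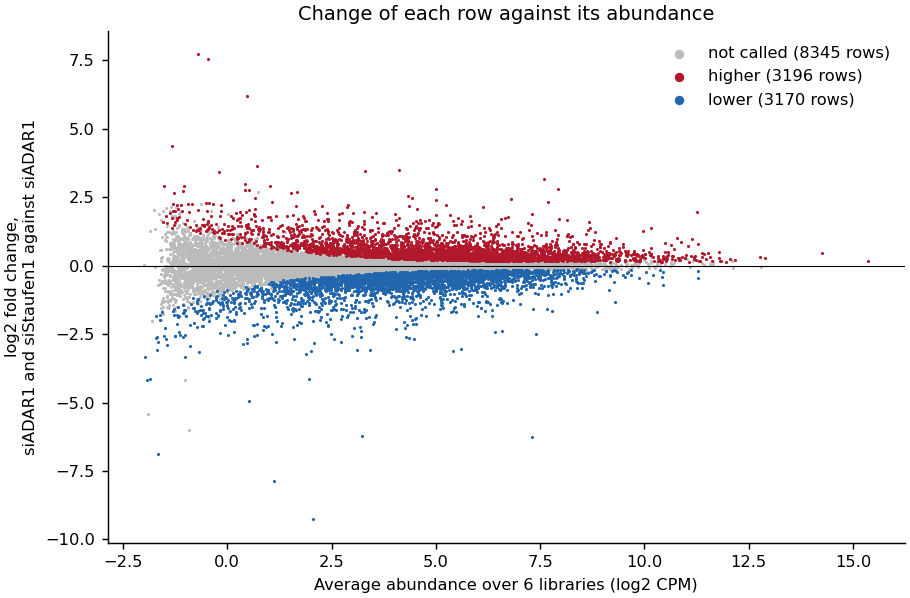
log2 fold change of the combined knockdown against siADAR1 (y axis) for each of the 14711 rows, against average log2 CPM over the 6 libraries (x axis). Red points are the 3196 rows called higher, blue points the 3170 called lower and grey points the rows not called, which fan out at low abundance; uc002xua.3 is the isolated blue point at a log2 CPM of 7.30.

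How rises and falls were balanced depended on how libraries were scaled. TMM set the median change over all rows to 0.00, while scaling to library totals moved it by -0.12, to -0.11. Under library totals 2200 rows were higher and 4411 lower, and the share of rises among the calls was 33.3%, compared with 50.2% under TMM. All 2200 rows called higher under library totals were also called higher with TMM, all 3170 rows called lower with TMM were still called lower, and 1241 further rows were called lower only under library totals.

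The 2 called rows whose libraries overlapped were picked out after their values were seen. Row uc021rjg.1 stood at 31.3 and 15.3 CPM in siADAR1, against 63.2 and 28.5 CPM in the combined knockdown, so its replicates were as far apart as its groups. Its log2 fold change was 0.98 (SE 0.36; adjusted p = 0.0427, edgeR quasi-likelihood test). Row uc021sse.1 had 0 and 2.13 CPM in siADAR1 and 0 CPM in both combined knockdown libraries, so a single library carried that call. Its log2 fold change was -7.85, and 0 without siADAR1 replicate b. Both calls depended on the test: with DESeq2 the adjusted p was 0.259 for uc021rjg.1 and 0.142 for uc021sse.1, which was also lost without either combined knockdown library (adjusted p of 0.0980 and 0.111, edgeR quasi-likelihood test). Without siADAR1 replicate b the log2 fold change of uc021rjg.1 was 0.54 (adjusted p of 0.330, edgeR quasi-likelihood test), without replicate a 1.58 (adjusted p of 0.0163), and without combined knockdown replicate a 0.30 (adjusted p of 0.565). In siControl, uc021rjg.1 was at 39.5 and 24.2 CPM and uc021sse.1 at 5.45 and 5.56 CPM. Replicate a of uc021rjg.1 was thus above replicate b in every group. With the replicate letter added to the fit, its log2 fold change was 0.96 (adjusted p of 4.64e-06, edgeR quasi-likelihood test). The same fit gave uc021sse.1 an adjusted p of 0.00922, still from a single library with reads.

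Row uc002xua.3, of 7 transcripts, fell the most among the rows that averaged 3 or more in log2 CPM. It stood at 256 and 255 CPM in the siADAR1 libraries and at 3.16 and 3.48 CPM in the combined knockdown, where 79 and 99 reads remained of 7110 and 8264. The siControl libraries were at 213 and 212 CPM. Every siADAR1 and siControl library was thus far above both combined knockdown libraries, and the replicates nearly coincided. The log2 fold change was -6.26 (SE 0.080, 95% interval -6.44 to -6.09; adjusted p = 6.04e-13, edgeR quasi-likelihood test). What remained was 0.0130 times the siADAR1 level.

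Row uc001jep.4, of 4 transcripts, fell as far, but on few reads and with a wider spread. It had 405 and 276 reads (14.6 and 8.53 CPM) in siADAR1 and 2 and 6 reads (0.0800 and 0.211 CPM) in the combined knockdown. Its siControl libraries were at 14.7 and 18.3 CPM. The log2 fold change was -6.22 (SE 0.43), and its 95% interval ran from -7.16 to -5.28. The edgeR quasi-likelihood test gave an adjusted p of 5.32e-07. Without combined knockdown replicate b the log2 fold change was -7.09, and without replicate a -5.74. This row, uc003dsx.3 among the falls and uc001kmo.3 among the rises reached the floor of 3 in average log2 CPM through siControl: over the 4 libraries compared they averaged 2.57, 2.94 and 2.21.

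The other 10 of the 12 largest falls were spread over a much narrower range, from -3.11 to -2.43 on the log2 scale, with standard errors of 0.058 to 0.19. In each of these rows the libraries of the 2 groups did not overlap, as the rule for naming them required. Their siControl levels are given beside them, and comparisons of siADAR1 with the other groups share the siADAR1 libraries. Row uc001zkj.2 was at 62.5 and 64.0 CPM in siADAR1, near its 62.0 and 51.7 CPM in siControl, and at 6.76 and 7.86 CPM in the combined knockdown. Row uc002iqo.3 was alike in siADAR1 (30.0 and 29.6 CPM) and siControl (30.5 and 33.9 CPM) and at 4.28 and 4.88 CPM in the combined knockdown. Row uc003dsx.3 went from 13.7 and 13.3 CPM to 2.08 and 1.16 CPM, with 10.9 and 10.4 CPM in siControl.

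Rows uc002ojs.2 and uc003ezf.2 had their highest levels in siControl. Row uc002ojs.2 stood at 79.3 and 77.7 CPM in siControl, 60.2 and 58.2 CPM in siADAR1, against 7.32 and 7.20 CPM in the combined knockdown. Row uc003ezf.2, a single transcript, stood at 169 and 139 CPM, then 84.9 and 85.9 CPM, then 15.8 and 15.9 CPM. Their log2 fold changes against siADAR1 were -3.03 (SE 0.078) and -2.43 (SE 0.094), with adjusted p-values of 4.73e-10 and 8.23e-09 by edgeR's quasi-likelihood test. In each, the siADAR1 and combined knockdown libraries were far apart.

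Row uc003wly.3 was at 292 and 295 CPM in siADAR1, against 52.9 and 51.7 CPM in the combined knockdown, with 155 and 159 CPM in siControl. Its log2 fold change was -2.49 (SE 0.058; adjusted p = 2.02e-10, edgeR quasi-likelihood test). Row uc001nqv.1 ended at 2.08 and 2.70 CPM from 21.3 and 19.9 CPM in siADAR1, with 8.72 and 9.01 CPM in siControl. Row uc011bsp.2, a single transcript, ended at 7.52 and 6.496 CPM from 42.8 and 44.2 CPM, with 9.67 and 11.2 CPM in siControl. In each of these rows the replicates lay close together beside the distance between the groups. Row uc002gka.3 was at 23.3 and 22.3 CPM in siADAR1, then 3.96 and 3.48 CPM in the combined knockdown and 0.778 and 0.807 CPM in siControl. Row uc004bku.2 was at 46.9 and 46.0 CPM, then 6.92 and 8.32 CPM, with 4.67 and 3.95 CPM in siControl.

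The 12 largest rises had log2 fold changes of 2.16 to 3.47, short of the 2 largest falls. Row uc002zyr.1, a single transcript, was far lower in both siControl and siADAR1 than in the combined knockdown. It was at 41.5 and 67.6 CPM in siADAR1, against 481 and 501 CPM in the combined knockdown, while siControl was at 31.2 and 37.8 CPM. The siADAR1 replicates were unequal, yet both lay far below the combined knockdown. The log2 fold change was 3.17 (SE 0.17, 95% interval 2.80 to 3.53; adjusted p = 6.93e-08, edgeR quasi-likelihood test), and it was 2.86 without siADAR1 replicate a and 3.56 without replicate b.

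The other 11 rises are given with their siControl levels beside them. For uc003okx.2, a row of 5 transcripts with the largest rise, siADAR1 stood at 1.26 and 1.39 CPM, the combined knockdown at 15.0 and 14.7 CPM and siControl at 37.9 and 33.9 CPM. Row uc001kmo.3 went from 0.577 and 0.927 CPM to 7.996 and 8.78 CPM, with 21.7 and 19.8 CPM in siControl. Their log2 fold changes were 3.47 (SE 0.14) and 3.45 (SE 0.20), on only 35 and 45 reads and 16 and 30 reads in siADAR1.

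The next rises were smaller than these and on more reads in siADAR1, though row uc003lzb.3 still had only 91 and 115 reads there. Row uc002gjo.2 had 908 and 1106 reads in siADAR1 (32.7 and 34.2 CPM) and 5783 and 6606 in the combined knockdown (231 and 232 CPM), with siControl at 457 and 464 CPM. Its log2 fold change was 2.79 (SE 0.059; adjusted p = 1.03e-10, edgeR quasi-likelihood test), with the smallest adjusted p among the 12 rises. Row uc001rvx.4 went from 33.0 and 28.9 CPM to 149 and 161 CPM, with 453 and 417 CPM in siControl. Row uc002hcx.1 went from 22.03 and 21.6 CPM to 117 and 118 CPM, with 207 and 188 CPM in siControl. Their log2 fold changes were 2.33 (SE 0.078) and 2.43 (SE 0.069). Row uc003lzb.3 was at 3.28 and 3.55 CPM, then 24.5 and 23.3 CPM, with 69.5 and 70.1 CPM in siControl. Row uc002kky.3 was at 6.17 and 5.34 CPM, then 30.2 and 30.1 CPM, with 58.4 and 62.9 CPM in siControl. These rows were several-fold apart between the groups compared, with replicates close together. Row uc001ohr.3 was at 8.83 and 9.92 CPM, then 42.8 and 45.0 CPM, with 57.5 and 63.8 CPM in siControl.

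Row uc003eib.4 was at 5.52 and 5.78 CPM in siADAR1, then 32.8 and 30.0 CPM in the combined knockdown and 26.1 and 28.3 CPM in siControl. Row uc001gdp.3 was at 5.77 and 6.70 CPM, then 25.9 and 30.1 CPM, with 29.3 and 24.9 CPM in siControl. Row uc001pqe.2, of 7 transcripts, was at 4.25 and 4.20 CPM, then 26.4 and 23.0 CPM, with 29.5 and 32.9 CPM in siControl. Their log2 fold changes against siADAR1 were 2.47 (SE 0.097), 2.16 (SE 0.12) and 2.54 (SE 0.11).

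**Figure D3:**
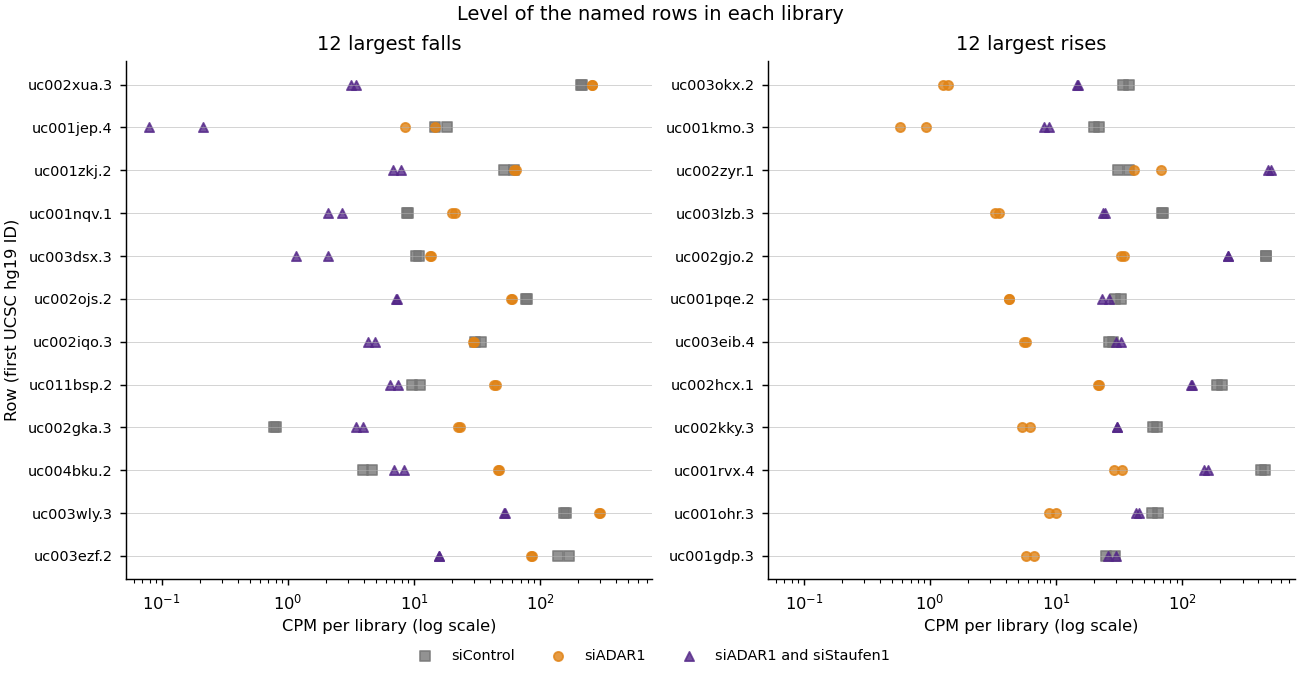
CPM of each library (x axis, log scale) for the 12 largest falls (left) and 12 largest rises (right) among called rows that averaged at least 3 in log2 CPM and whose groups did not overlap (y axis, first UCSC hg19 ID). Squares are siControl, circles siADAR1 and triangles the combined knockdown, with 2 points per group; uc002xua.3 drops from 256 and 255 CPM to 3.16 and 3.48 CPM, and uc002zyr.1 climbs from 41.5 and 67.6 CPM to 481 and 501 CPM.

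Few rows were lost or gained outright. With 0 reads in both libraries of one group and at least 10 in both of the other as the rule, 2 rows of 20514 were at 0 in the combined knockdown and 1 was at 0 in siADAR1. Row uc002mfu.2 had 17 and 17 reads in siADAR1 and 0 in both combined knockdown libraries, so it was at least 5.05-fold lower when 0 is read as up to 3 reads per library. Row uc010ehd.3 had 10 and 19 reads against 0, at least 4.21-fold lower, and did not pass the filter's minimum count per library, so it was not tested. In siControl these rows had 3 and 1, and 0 and 0 reads. Row uc022bcc.1 had 0 reads in both siADAR1 libraries and 28 and 26 in the combined knockdown, at least 10.1-fold higher, with 12 and 14 reads in siControl. These floors cover counting error only, since reads that carry no molecular identifier may be copies of one molecule. Leaving out a library relaxes the rule, and 7 to 13 rows were then at 0 in the combined knockdown alone and 4 to 8 in siADAR1 alone.

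The rows were then divided into quartiles of abundance. In the most abundant quartile (average log2 CPM of 5.55 or more), 1359 of 3678 rows (36.9%) were higher and 812 (22.1%) lower, with a median of 0.08. This lean turned under library totals, where 24.5% of the same rows were higher and 33.7% lower, with a median of -0.04. With TMM, this quartile held 75 rises and 54 falls of at least 2-fold. Of at least 4-fold it held 5 and 5, and of at least 8-fold 1 and 2. In the next quartile 24.2% were higher and 29.3% lower, and in the one below it (log2 CPM 1.71 to 3.84) 18.0% were higher and 25.01% lower, with medians of -0.03 and -0.06. Under library totals these shares were 16.7% and 40.0%, and 12.7% and 33.3%.

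In the least abundant quartile 286 rows (7.78%) rose and 361 (9.82%) fell, and 33 of the 50 rises and 56 of the 95 falls of at least 4-fold were in it. Of those of at least 2-fold, it held 194 of 467 rises and 248 of 562 falls. Standard errors of log2 fold changes had a median of 0.36 in this quartile and 0.064 in the most abundant one. The smallest change called was 0.50 on the log2 scale in the former and 0.14 in the latter. Small changes in rows of low abundance were therefore not detectable at this depth. Without any one of the 4 libraries compared, this quartile held 117 to 142 rises and 156 to 189 falls, and with DESeq2 140 and 173. The next quartile up held fewer rises than its 661, whichever of the 4 libraries compared was left out.

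Because a row that misses the threshold is not shown to be unchanged, rows were also counted by the 95% interval of their log2 fold change. In 6957 rows (47.3% of those tested) the whole interval lay within 1.5-fold in either direction. Of these, 2217 were called as well, with a small but resolved difference, and 4740 were not. The share was 77.1% in the most abundant quartile and 3.40% in the least abundant one. Another 3605 rows (24.5%) were neither called nor held within 1.5-fold, and 2906 of them were in the least abundant quartile. Among the rows that took the most reads and were near-equal without a call, 3 were looked up after the values were seen. Row uc002kag.3 was at 6712 and 6410 CPM in siADAR1, against 6260 and 6553 CPM in the combined knockdown, so its groups overlapped, with an interval of -0.14 to 0.07. Row uc001ugr.3 (5125 and 4999, then 4790 and 4659 CPM) had an interval of -0.21 to 0.02, and uc003ccn.3 (3576 and 3791, then 3805 and 4460 CPM) one of 0.01 to 0.32, which leaves out 0, although the row missed the threshold after adjustment. Both uc001ugr.3 and uc003ccn.3 passed it with only the 4 libraries compared in the fit (adjusted p of 0.0304 and 0.0300, edgeR quasi-likelihood test). They also passed it when either siControl library was left out. Without a filter uc003ccn.3 passed it too (adjusted p of 0.00102, same test). Its log2 fold change was 0.28 without combined knockdown replicate a and 0.04 without replicate b. Under library totals uc002kag.3 and uc001ugr.3 passed the threshold, as lower (adjusted p of 0.0147 and 0.00354, same test).

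**Figure D4:**
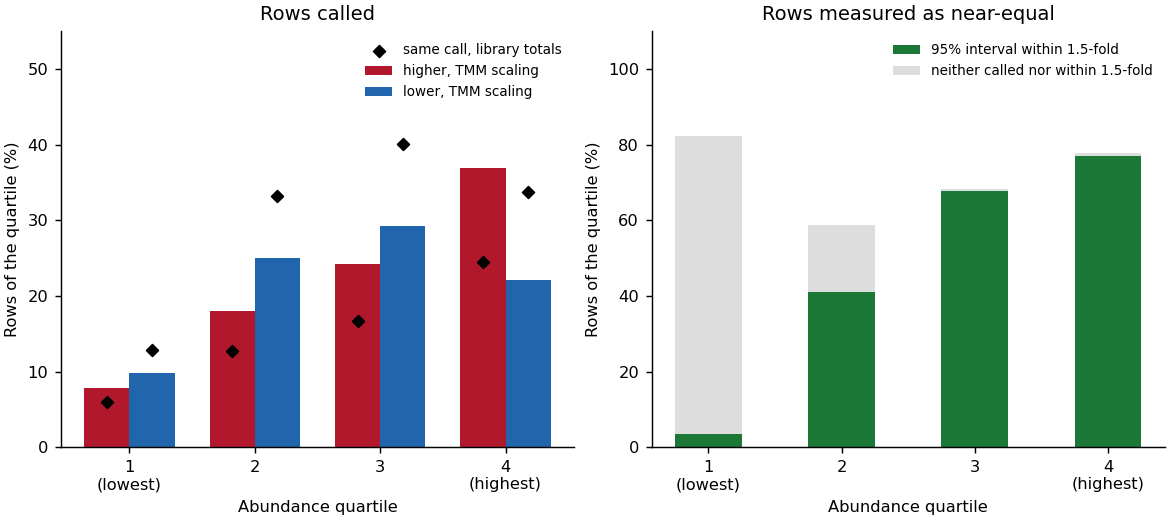
Left, percent of the rows in each abundance quartile (x axis) called higher (red bars) or lower (blue bars) with TMM scaling, and under scaling to library totals (black diamonds); in the most abundant quartile the bars are 36.9% and 22.1% and the diamonds 24.5% and 33.7%. Right, percent of rows whose 95% interval lay within 1.5-fold (green), from 3.40% to 77.1%, and of rows neither called nor within it (grey).

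The number of UCSC transcripts in a row was the one further feature the file gives. It rose with abundance, with a median log2 CPM of 2.55 in the 3472 rows of 1 transcript and 4.39 in the 1608 rows of 7 or more. Calls were therefore read within a quartile. In the most abundant quartile, 40.0% of the 587 rows of 1 transcript were higher and 19.6% lower, against 35.0% and 25.1% of the 491 rows of 7 or more. Under library totals these shares were 25.7% and 30.7%, and 24.4% and 38.9%. Within that quartile, falls were thus more frequent in rows of 7 or more transcripts under both scalings, a description that was not tested. With TMM the quartile just below the most abundant one had the same order, at 26.04% lower in rows of 1 transcript and 33.3% in rows of 7 or more. So did the least abundant quartile, at 7.43% and 11.8%. Only in the quartile with log2 CPM of 1.71 to 3.84 was the order opposite with TMM, by a small margin, at 22.4% and 21.5%. There, rows of 2 to 3 and of 4 to 6 transcripts were lower more often than both, at 26.9% and 26.01%.

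The size of the shift as a whole was taken as the share of reads that would have to move between rows to turn one profile into the other, on library totals. Between the group means it was 9.29%. It ranged from 9.24% to 9.58% over the 4 pairs of a combined knockdown and a siADAR1 library. The 2 siADAR1 libraries differed by 2.21% and the 2 combined knockdown libraries by 2.18%, so every pair across the groups was farther apart than the replicates. With 2 libraries in each group no exact permutation test could pass 0.05, and none was run.

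Gains were concentrated in fewer rows than losses on library totals, the only scaling on which this concentration was measured. Under that scaling more rows were called lower than higher, as given above. The 10 rows with the largest gain took 15.6% of all gained reads and the 100 largest 42.2%, whereas the 10 and 100 largest losses made up 6.35% and 22.4% of the lost reads. Rows called higher held 43.1% ± 0.049 of the reads in siADAR1 and 52.0% ± 0.12 in the combined knockdown (SD, n = 2 each). Rows called lower held 20.0% ± 0.047 and 13.4% ± 0.052 (SD, n = 2 each). Rows not called held 36.9% ± 0.0013 and 34.6% ± 0.074 (SD, n = 2 each), so their share fell too. Calls were made with TMM scaling, whereas these shares are on library totals. The called rows were chosen on the same libraries, so the shares describe the shift and do not test it.

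**Figure D5:**
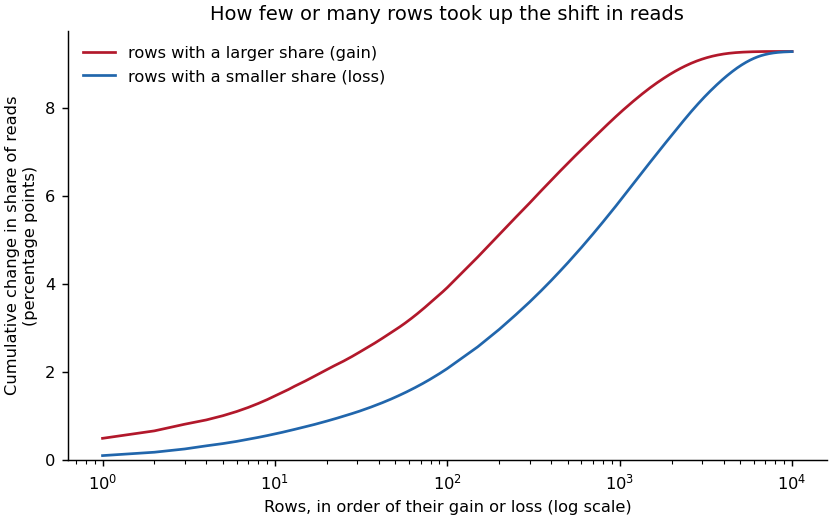
Cumulative change in the share of reads between siADAR1 and the combined knockdown, in percentage points (y axis), over rows in order of their gain (red) or loss (blue) on a log axis (x axis). The 100 largest gains add up to 3.92 points and the 100 largest losses to 2.08 points, and both curves end at 9.29.

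The largest gain was that of uc003soq.4, a row of 3 transcripts, from 16285 and 16625 CPM in siADAR1 to 22682 and 22585 CPM in the combined knockdown, with siControl at 20215 and 19272 CPM. On library totals it took 5.26% of all gained reads. The fold was modest, with a log2 change of 0.46 (SE 0.045; adjusted p = 8.72e-06, edgeR quasi-likelihood test). Row uc003lug.4 had the most reads of any row and the second largest gain in TMM-scaled CPM, from 32602 and 32718 CPM to 35373 and 37240 CPM, far under its siControl level of 61218 and 54604 CPM. Its log2 change of 0.15 (SE 0.055) only just passed (adjusted p = 0.0427, edgeR quasi-likelihood test). That call was lost with DESeq2 (adjusted p of 0.0666), among the rows that averaged 3 or more in log2 CPM alone (adjusted p of 0.112) and under library totals (log2 change of 0.04, adjusted p of 0.549). It was also lost when any of the 4 libraries compared was left out (adjusted p of 0.0662 to 0.289).

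Row uc001kqy.3, a single transcript, combined many reads with a large fold. It was at 591 and 619 CPM in siADAR1, against 2295 and 2361 CPM in the combined knockdown, with 4571 and 4288 CPM in siControl, and its log2 change was 1.94 (SE 0.055; adjusted p = 9.85e-10, edgeR quasi-likelihood test). Row uc003uew.3 was at 1503 and 1969 CPM in siADAR1, a range that overlapped the 1432 and 1829 CPM of siControl, and at 3367 and 3378 CPM in the combined knockdown. Its log2 change was 0.96 (SE 0.12). Row uc001ezl.3 went from 2754 and 2811 CPM to 3888 and 4057 CPM, with 3486 and 4104 CPM in siControl. In all 3 rows the combined knockdown libraries lay above both siADAR1 libraries.

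The largest losses in CPM were smaller than the largest gains. Row uc003mkt.1 went from 2620 and 2873 CPM to 1953 and 2106 CPM, with 2671 and 2729 CPM in siControl. Row uc001fvk.3 was at 1569 and 1568 CPM in siADAR1 and 1679 and 1562 CPM in siControl, and at 964 and 971 CPM in the combined knockdown. Its log2 change was -0.70 (SE 0.052; adjusted p = 1.08e-06, edgeR quasi-likelihood test). In both rows the combined knockdown libraries lay below the siADAR1 libraries.

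Row uc001kin.3, of 5 transcripts, was at 1080 and 978 CPM in siControl, 620 and 619 CPM in siADAR1, against 246 and 252 CPM in the combined knockdown. Its log2 change against siADAR1 was -1.31 (SE 0.059; adjusted p = 2.18e-08, edgeR quasi-likelihood test). Row uc002zgb.2 stood at 1417 and 1387 CPM, then 1122 and 1108 CPM, then 721 and 723 CPM. Row uc002oja.2 stood at 1583 and 1711 CPM, then 1424 and 1370 CPM, then 1015 and 1061 CPM. Their log2 changes against siADAR1 were -0.63 (SE 0.049) and -0.43 (SE 0.056).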

How the data were processed

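The deposited values are expected counts, that is estimated counts of reads per row for each library, which the authors gave as whole numbers, so rounding changed none. Per the file headers, the transcripts grouped in a row are UCSC hg19 IDs. The tools named in the submitters' processing notes are RSEM 1.2.3 and edgeR, with build hg19. The aligner and the strand setting were not stated there. Reads of antisense partners or near-identical genes are therefore uncertain. The libraries were of Lexogen's SENSE mRNA type, per the labels' protocols.

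Rows were kept by edgeR's filterByExpr (10 reads, total 15). A mean per group was fitted to all 6 libraries with TMM factors, so siControl enters the filter, the scaling, the estimate of the spread (3 residual and 8.58 prior degrees of freedom) and the average log2 CPM, which sets the quartiles and the floor of 3. The two-sided quasi-likelihood F test compared the 2 groups, with Benjamini-Hochberg adjustment over 14711 rows. Standard errors came from the F statistic, and 95% intervals from a t quantile with 11.6 degrees of freedom. Counts were also simulated over 14556 rows. Only 98 of these were changed 1.5-fold and 100 changed 2-fold, far fewer than the 43.3% of rows called in the data. The test called 58 and 78 of them, beside 18 unchanged rows. The intervals held the true value in 95.2% of rows. With so few changed rows in the simulation, these shares need not hold for the data.

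Named rows are the 12 largest rises and falls that passed the test, averaged at least 3 in log2 CPM and did not overlap between groups, the 5 largest gains and losses in CPM among called rows, rows detected in one group only, and rows matched by an annotation. The contrast, lists and rules were chosen with earlier results of these data known. The gene lists and cell markers set down for this contrast were not run, because the IDs could not be tied to symbols with the tables used here. Between the groups compared, same-letter libraries deviated from their group means with a correlation of 0.012 across rows, and were treated as unpaired. R 4.3.3, edgeR 4.0.16, limma 3.58.1, DESeq2 1.42.0, Python 3.11.15 and matplotlib 3.10.9 were used. Other scalings, filters and tests, a replicate block and leaving out libraries were tried.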

Additional observations from a re-analysis of the deposited data

How the results depend on the processing

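Of 193 alternative counts of rows, 159 lay within 1.5 times the reported count. With glmTreat against a 1.5-fold change, a stricter test by construction, 448 rows were higher and 571 lower. From the least to the most abundant quartile it gave 62, 131, 126 and 129 higher and 97, 182, 176 and 116 lower. Under library totals the most abundant quartile held 897 higher and 1245 lower rows. With DESeq2 the least abundant quartile held 140 and 173. Filters redefine the quartiles. Without a filter the lowest held 20 higher and 36 lower and the highest 1221 lower. With a floor of 3 on the average log2 CPM, 191 rows were at least 2-fold higher and 213 lower, with 438 higher and 669 lower in the lowest quartile, 662 lower in the third and 481 lower in the highest. Reads moved came to 9.68% with DESeq2 size factors and 9.70% with TMM, against 9.29%. With at least 5 reads in place of 10, 17 rows were at 0 in the combined knockdown only and 8 in siADAR1 only. The TMM and 5-read settings, and leaving libraries out of these rows at 0, were chosen after seeing the data.

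When libraries were left out one at a time, with a lone sample taken to vary as the other groups do, 2206 to 3659 rows were higher and 2221 to 3746 lower. At least 2-fold, the ranges were 392 to 489 and 476 to 612. By quartile from the lowest, higher rows numbered 117 to 297, 415 to 789, 625 to 991 and 1013 to 1589, and lower rows 156 to 366, 631 to 1085, 795 to 1276 and 605 to 1019. Leaving out any of the 4 libraries compared lowered the numbers of rows called higher and lower, and moved the lowest quartile most. Leaving out either siControl library raised both numbers. Near-equal rows numbered 5764 to 7463 and reads moved 9.25% to 9.48%. Rows at 0 in the combined knockdown only numbered 7 to 13, and in siADAR1 only 4 to 8. With the replicate block, 3265 rows were higher and 3185 lower, and none of the 42 named rows tested gained or lost its call. Of 624 alternative values of these rows, 588 kept their direction and side of the threshold. The 25 that lost the call were those of uc003lug.4, uc021rjg.1 and uc021sse.1 and, with glmTreat, of rows with many reads and changes under 2-fold. The 10 that gained one were those of the 3 near-equal rows, and uc021sse.1 had a log2 fold change of -8.75 without siADAR1 replicate a and 0 without replicate b, its only library with reads in the contrast.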
